A study of Mus musculus with 4 samples.

Results

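The sirtuins, the PGC-1 coactivators and the mitochondrial DNA factor Tfam were examined in mouse brain cortex after oral TCQA, named by gene symbol in the array's platform annotation. Of the 10 genes listed, 9 had a row on the array, each with 1 transcript cluster (the set of probes read as 1 transcript), out of 19505 gene symbols. Sirt7, a nuclear sirtuin, had no row under its name and was not analysed here. The cortex came from male SAMR1 mice, a line used as the normally ageing counterpart of senescence-accelerated strains. All mice were kept singly for 4 months from 7 months of age. From 11 months of age the TCQA group was given TCQA, a caffeoylquinic acid of plant origin (tricaffeoylquinic acid), orally each day at 5 mg/kg for 1 month, and the water group received MilliQ water. Each group had 2 Clariom S arrays, called TCQA 1 and 2 and water 1 and 2, and the labels name no genetic difference between them. The labels do not say whether an array held RNA of a single mouse or of a pool, and nothing states that they came from separate animals. The p-values therefore reflect the spread of these arrays alone, part of which can be technical.

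Sirtuins are enzymes that use NAD to remove acetyl and other acyl groups from lysines, which ties their activity to the energy state of the cell. Sirt1, Sirt6 and Sirt7 act mainly in the nucleus, Sirt2 mainly in the cytosol and Sirt3, Sirt4 and Sirt5 in mitochondria. PGC-1alpha, encoded by Ppargc1a and deacetylated by Sirt1, and its relative PGC-1beta, encoded by Ppargc1b, coactivate the nuclear factors that switch on mitochondrial genes, among them Tfam, which packages mitochondrial DNA and starts its transcription.

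Across the 9 measured genes, no difference between TCQA and water passed the adjusted test, and the smallest p belonged to a lower Sirt3 signal in the TCQA arrays. Sirt3, Sirt2 and Ppargc1a had lower means after TCQA and the other 6 genes higher ones, with a median log2 difference of 0.054 against 0.0028 over all 19572 transcript clusters tested. With limma's moderated test and Benjamini-Hochberg adjustment over all transcript clusters, 0 of the 9 passed an adjusted p of 0.05, where 0% of all transcript clusters did. An unadjusted p under 0.05 was reached by 1 of the 9, Sirt3, against 7.37% of all transcript clusters (3.89% lower and 3.48% higher), so that the share among these genes was near the background. The study called a gene where it changed more than 2-fold with an unadjusted p under 0.05, which 0 of the 9 and 0.664% of all transcript clusters met. The TCQA and water arrays did not overlap for 5 of the 9 genes, and the same held for 39.2% of all transcript clusters. Of these 5, TCQA lay above for Sirt1, Sirt4 and Ppargc1b (19.9% of all transcript clusters) and below for Sirt2 and Sirt3 (19.2%). The 95% intervals of all 9 differences, taken from limma, lay within a 2-fold change in either direction, from -0.99 to 0.89 on the log2 scale.

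**Figure D1:**
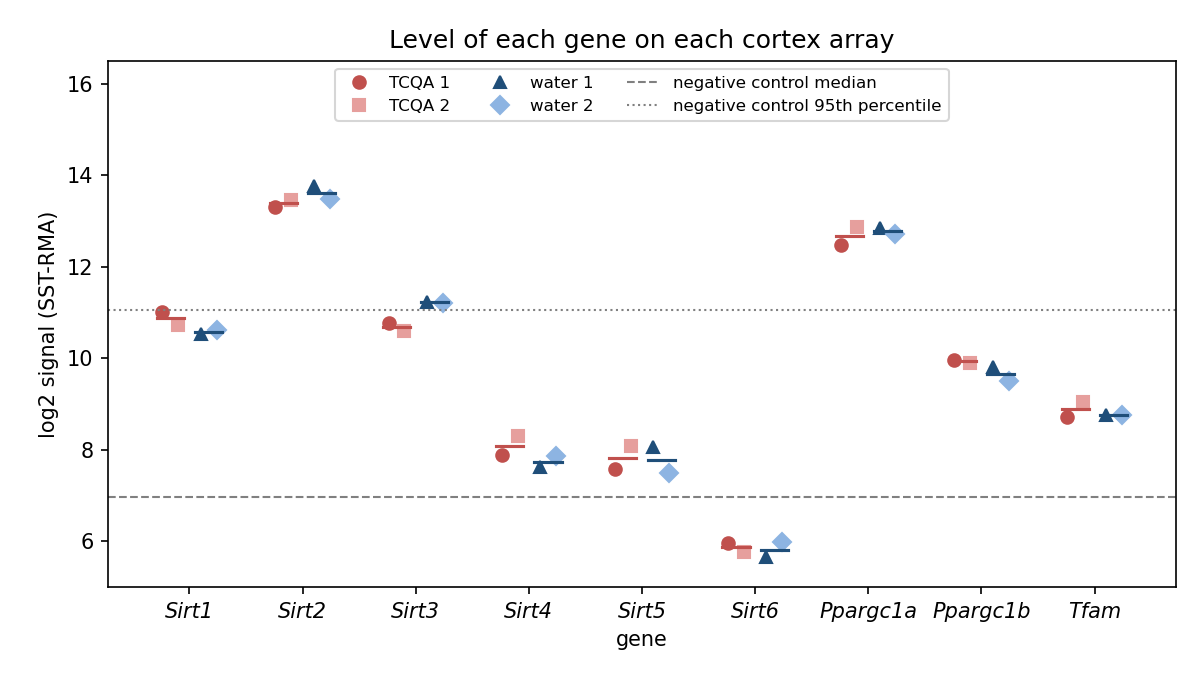
Log2 signal (y axis) of each of the 9 genes (x axis) on each array, with a horizontal bar at each group's mean and grey lines at the median (6.98) and the 95th percentile (11.06) of the negative control probe sets. The TCQA points lie below both water points for Sirt3, while Sirt5, Sirt6, Ppargc1a and Tfam overlap; heights of different genes come from different probes and are not comparable.

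The arrays carry no depth, and their number limits the precision. The 4 arrays correlated across genes with r between 0.990 and 0.993 and had medians between 6.98 and 7.04 on the log2 scale. The array's negative control probe sets had a median log2 signal of 6.98 and a 95th percentile of 11.06. Sirt2 and Ppargc1a were above that percentile on all 4 arrays, and Sirt3 on both water arrays but on neither TCQA array. Sirt1, Sirt4, Sirt5, Ppargc1b and Tfam were above the control median on all 4 arrays but above that percentile on 0. Sirt6 was below the control median on all 4 arrays, so that its values may hold little signal of the gene. Markers of cortical excitatory neurons were present, with a mean log2 signal between 11.45 and 12.16 per array over 12 genes.

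Sirt3 encodes the main protein deacetylase of the mitochondrial matrix. Its log2 signal (transcript cluster TC0700004509.mm.2) was 10.78 and 10.60 in TCQA 1 and 2 and 11.23 and 11.21 in water 1 and 2. Both TCQA arrays lay below both water arrays, and the space of 0.43 between the groups was wider than the spread within either group, 0.18 for TCQA and 0.026 for water. The difference was -0.53 on the log2 scale (SE 0.19, 95% interval -0.99 to -0.073), or 1.45-fold lower, with an unadjusted p of 0.0293 and an adjusted p of 0.673 by limma. With each array left out in turn the difference stayed between -0.62 and -0.44 but no longer had an unadjusted p under 0.05, with limma p-values between 0.0521 without TCQA 1 and 0.145 without TCQA 2, and 0.0861 and 0.0749 without water 1 and water 2. Leaving out an array also makes the fit less precise. This p can therefore be lost while the difference stays or grows, as without TCQA 1 (-0.62). In these bulk samples, fewer cells of a type and less RNA per cell cannot be told apart.

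Sirt3 starts back to back with Psmd13, which encodes a proteasome lid subunit, and the RefSeq annotation (GRCm38.p6) leaves 84 bases between them. The stretch upstream of Sirt3 is shown because both genes are read from it in opposite directions. It is given 5′ to 3′ on the Sirt3 strand (minus), chr7:140882310-140882395, it reaches 2 bases into Psmd13, and capitals mark a match to the core of the GABPA motif, CCGGAAGT, read on the other strand.
Sirt3 upstream: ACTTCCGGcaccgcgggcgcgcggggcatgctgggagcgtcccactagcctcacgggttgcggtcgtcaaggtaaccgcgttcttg
Psmd13 was looked up after the Sirt3 values were seen. Its log2 signal was 11.61 and 11.87 after TCQA and 11.89 and 11.86 after water. TCQA 2 lay between the water arrays, and the difference was -0.13 (SE 0.20, 95% interval -0.60 to 0.34), so the interval of Psmd13 includes the Sirt3 difference and the values do not show that the genes differ from each other.

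The other mitochondrial sirtuins had higher TCQA means that did not pass the test. Sirt4 encodes an enzyme that acts on lipoyl and branched acyl groups and inhibits glutamate dehydrogenase. Its log2 signal was 7.88 and 8.30 in TCQA 1 and 2 and 7.63 and 7.86 in water 1 and 2. The groups were separated by 0.026, far less than the 0.42 between the TCQA arrays, and the difference was 0.35 (SE 0.23, 95% interval -0.20 to 0.89; limma, adjusted p = 0.725). Without TCQA 2 it stood at 0.14, and without TCQA 1 at 0.56. Sirt5, which removes succinyl, malonyl and glutaryl groups, had log2 signals of 7.59 and 8.08 after TCQA and 8.07 and 7.49 after water. The arrays of a group differed by 0.49 and 0.58, far more than the group difference of 0.054 (SE 0.28, 95% interval -0.62 to 0.73), whose sign turned without TCQA 2 (-0.19) and without water 2 (-0.23).

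Sirt1 encodes the nuclear deacetylase that acts on PGC-1alpha, p53 and FOXO factors. Its log2 signal (transcript cluster TC1000002280.mm.2) was 11.02 and 10.73 in TCQA 1 and 2 and 10.53 and 10.62 in water 1 and 2. Both TCQA arrays were above both water arrays, by 0.12 at the nearest, while the TCQA arrays themselves were 0.28 apart. The difference was 0.30 (SE 0.20, 95% interval -0.18 to 0.79), or 1.24-fold, with an adjusted p of 0.731 by limma, and it ranged from 0.16 without TCQA 1 to 0.45 without TCQA 2. Sirt1 and Sirt3 thus lay on opposite sides of the water level, and their log2 differences were 0.84 apart, a pair chosen after the values were seen and not tested.

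The bases before the Sirt1 start, shown because the gene is the nuclear sirtuin with separated groups, hold the E-box CACGTG at 2 places, the sequence that clock and Myc family factors bind. They are given 5′ to 3′ on the Sirt1 strand (minus), chr10:63339036-63339285 of GRCm38.p6 from RefSeq, with the E-boxes in capitals, and 79.2% of the bases are G or C.
Sirt1 upstream: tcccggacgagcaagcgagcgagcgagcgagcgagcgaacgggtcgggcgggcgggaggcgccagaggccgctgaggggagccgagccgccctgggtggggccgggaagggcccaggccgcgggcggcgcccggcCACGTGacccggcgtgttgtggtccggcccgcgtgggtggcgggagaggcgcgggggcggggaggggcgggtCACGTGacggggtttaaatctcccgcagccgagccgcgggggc
The E-boxes lie 115 to 110 and 43 to 38 bases before the annotated start. Of all 32851 RefSeq windows of the same 250 bases, 6.02% hold CACGTG.

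Sirt6 is a chromatin deacetylase of histone H3 with a part in telomere upkeep and DNA repair. Its log2 signal was 5.97 and 5.77 after TCQA and 5.66 and 5.98 after water, and both groups spanned nearly the same range. The difference of 0.049 (SE 0.21, 95% interval -0.46 to 0.56) changed sign without TCQA 1 (-0.048) and without water 1 (-0.11). Since all 4 values lay below the negative control median, they say little about the level of Sirt6.

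Sirt2 is the cytosolic sirtuin, a deacetylase of tubulin that is abundant in oligodendrocytes and myelin. Its log2 signal (transcript cluster TC0700000511.mm.2) was 13.31 and 13.46 in TCQA 1 and 2 and 13.77 and 13.47 in water 1 and 2. Water 1 stood above the other 3 arrays, and TCQA 2 and water 2 were only 0.0072 apart. The difference was -0.23 (SE 0.21, 95% interval -0.73 to 0.26; limma, adjusted p = 0.792), and it was -0.083 without water 1, against -0.38 without water 2. Myelinating oligodendrocyte markers were also highest in water 1. Of 14 listed markers 13 were measured and 11 of them were lower after TCQA, with a median of -0.34, and water 1 exceeded water 2 for 12 of the 13. The mean log2 signal of these markers was 11.36 and 11.34 after TCQA and 11.94 and 11.42 after water. Mbp, myelin basic protein, had 16.94 and 16.75 after TCQA against 17.75 and 17.13 after water, and Mog, a glycoprotein of the outer myelin surface, at 9.50 and 9.36 against 9.93 and 9.53. The part of these markers in the Sirt2 values was not tested.

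**Figure D2:**
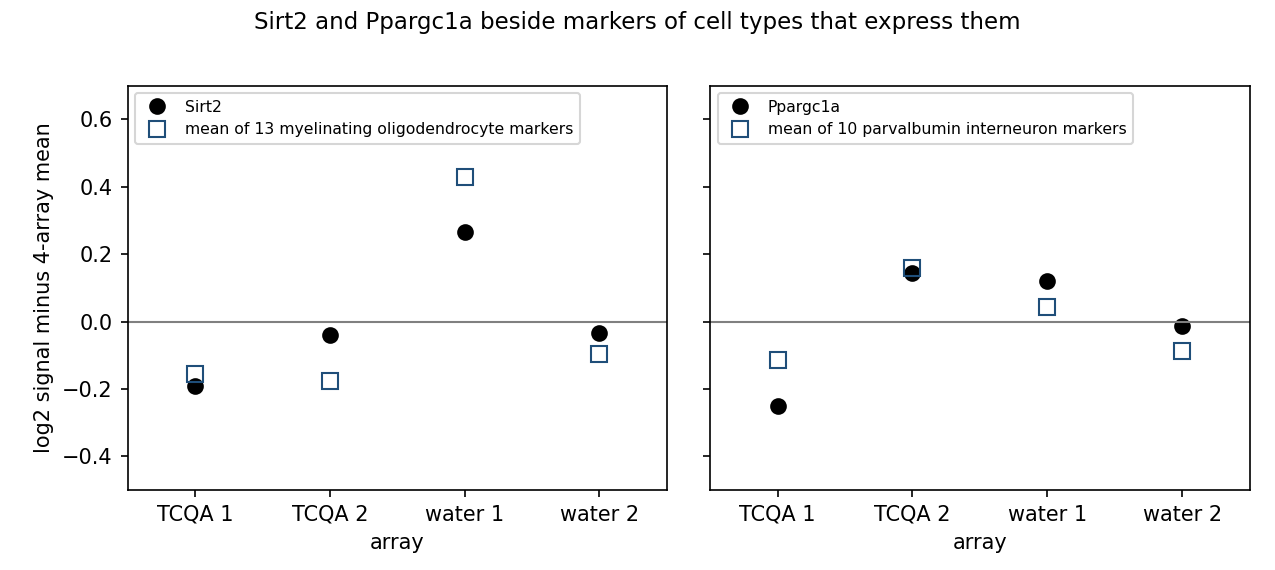
Log2 signal minus the 4-array mean (y axis) on each array (x axis) for Sirt2 with the mean of 13 myelinating oligodendrocyte markers (left) and for Ppargc1a with the mean of 10 parvalbumin interneuron markers (right). Water 1 is the highest array for Sirt2 and for the myelin markers, and TCQA 1 the lowest for Ppargc1a and TCQA 2 the highest for Ppargc1a and for the interneuron markers.

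Ppargc1a encodes PGC-1alpha, which in cortex is enriched in fast-spiking interneurons that contain parvalbumin. Its log2 signal (transcript cluster TC0500002394.mm.2) was 12.47 and 12.87 in TCQA 1 and 2 and 12.84 and 12.71 in water 1 and 2. The TCQA arrays lay on either side of the water arrays, 0.40 apart, and the difference was -0.11 (SE 0.22, 95% interval -0.63 to 0.42; limma, adjusted p = 0.923). It was 0.092 without TCQA 1 and -0.30 without TCQA 2. Of the 11 parvalbumin interneuron markers 10 were measured, 5 higher and 5 lower after TCQA, with array means of 10.35 and 10.62 for TCQA 1 and 2 and 10.50 and 10.37 for water 1 and 2. Pvalb, the calcium buffer parvalbumin, had log2 signals of 10.22 and 10.60 with TCQA against 10.44 and 10.87 with water. Syt2, a fast calcium sensor of transmitter release, differed by 0.025 (SE 0.18). Cox6a2, a cytochrome oxidase subunit of these cells, differed by -0.47 (SE 0.33), and by -0.098 without TCQA 1 and -0.84 without TCQA 2. Cox6a2 lay above the negative control median on only 1 array, which leaves the size of its difference uncertain. Lhx6, a transcription factor of interneurons from the medial ganglionic eminence, was the 1 marker of this list with an unadjusted p under 0.05 and is named after its values were seen. Its log2 signal was 7.52 and 7.35 in the TCQA arrays and 6.86 and 6.22 in the water arrays, a difference of 0.90 (SE 0.26; limma, adjusted p = 0.664) that was 0.58 without water 2, where that p was lost. Both of its water values lay below the negative control median, which leaves its size uncertain. The part of these markers in the Ppargc1a values was not tested.

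Ppargc1b encodes PGC-1beta, which supports basal mitochondrial content. Its log2 signal (transcript cluster TC1800001417.mm.2) was 9.97 and 9.90 in TCQA 1 and 2 and 9.80 and 9.50 in water 1 and 2. Both TCQA arrays were above both water arrays, by 0.097 at the nearest, less than the 0.30 between the water arrays. The difference was 0.28 (SE 0.20, 95% interval -0.20 to 0.77; limma, adjusted p = 0.747), from 0.13 without water 2 to 0.44 without water 1.

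Tfam, the packaging and transcription factor of mitochondrial DNA, had log2 signals of 8.72 and 9.05 in TCQA 1 and 2 and 8.76 and 8.77 in water 1 and 2 (transcript cluster TC1000002356.mm.2). The water arrays agreed to 0.014, and the TCQA arrays, 0.33 apart, lay on either side of them. The difference was 0.12 (SE 0.21, 95% interval -0.37 to 0.62; limma, adjusted p = 0.905), and it was -0.044 without TCQA 2 and 0.29 without TCQA 1. The site shown here is one of the kind through which GABPA, a partner of the PGC-1 coactivators, is known to drive Tfam. It is a 30-base stretch of chr10:71238073-71238102 (GRCm38.p6, RefSeq, minus strand), with the match to CCGGAAGT in capitals, 47 to 40 bases before the annotated start.
Tfam site: cctgccgcggaCCGGAAGTccgggcttccc

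**Figure D3:**
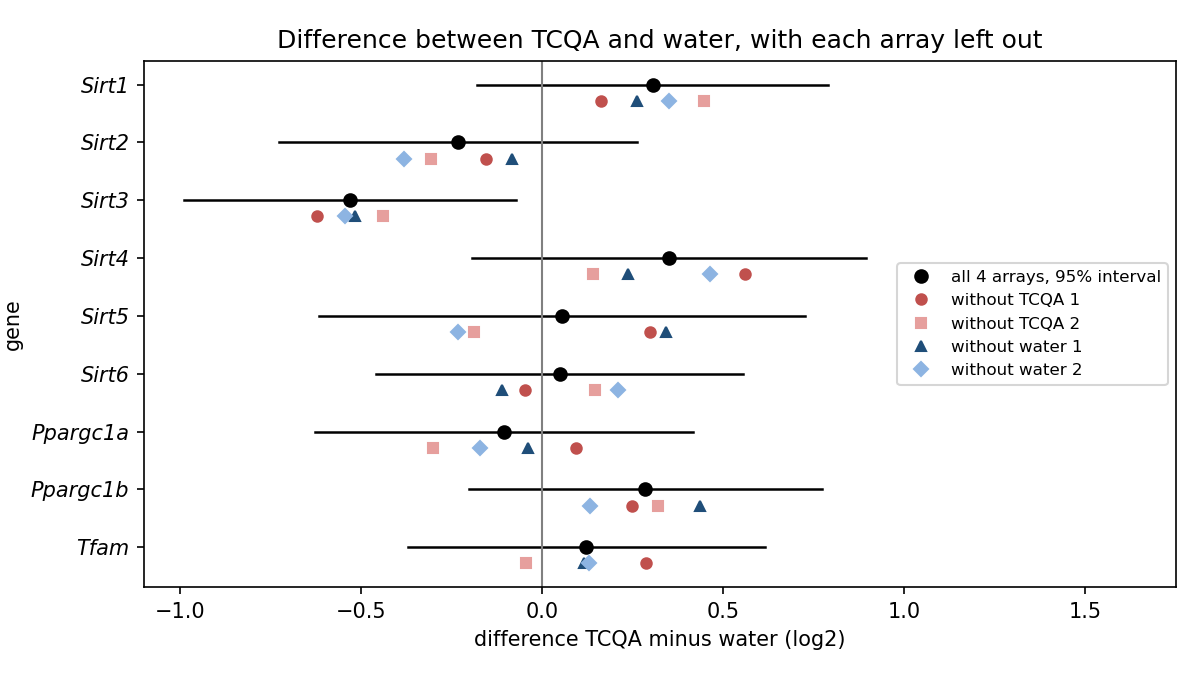
Log2 difference TCQA minus water (x axis) for each gene (y axis), with the 95% interval from limma over all 4 arrays in black and the difference with each array left out as coloured points. Only the interval of Sirt3 excludes 0 (-0.99 to -0.073), and the sign of Sirt5, Sirt6, Ppargc1a and Tfam turns with an array left out.

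RefSeq windows of 250 bases before the start were at hand for 8 of the 9 measured genes, and 5 motifs were searched on both strands. CCGGAAGT (GABPA) was found for Sirt3, Sirt6 and Tfam, and in 2.88% of all 32851 windows. The motif of NRF1, a nuclear regulator of respiratory genes, was found for Sirt6 alone of the 8 genes, and in 3.74% of windows, while TCAAGGTCA (ERR receptors, partners of PGC-1alpha; 0.387% of windows) and TGACGTCA (CREB; 1.55%) were found for 0 of the 8. CACGTG was found for Sirt1 alone. None of the matches in these genes overlapped another. The 3 genes with the GABPA letters, Sirt3, Sirt6 and Tfam, had log2 differences of -0.53, 0.049 and 0.12. Sirt6 was below the negative control median on every array, and Sirt6 and Tfam turned sign with an array left out. Whether the letters go with a direction was not tested.

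The partners of these genes were described in 5 lists, with 109 measured genes of 119 listed. Of the 109, 66 were higher and 43 lower after TCQA, with a median log2 difference of 0.084. With limma, 0 passed the adjusted threshold, 10 were higher (9.17%) and 1 lower with an unadjusted p under 0.05, against 3.48% higher and 3.89% lower of all transcript clusters. Counts with an array left out, given in the closing section, were taken anew over all 109 genes. They do not show how many of these 10 higher genes and 1 lower gene kept an unadjusted p under 0.05.

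**Figure D4:**
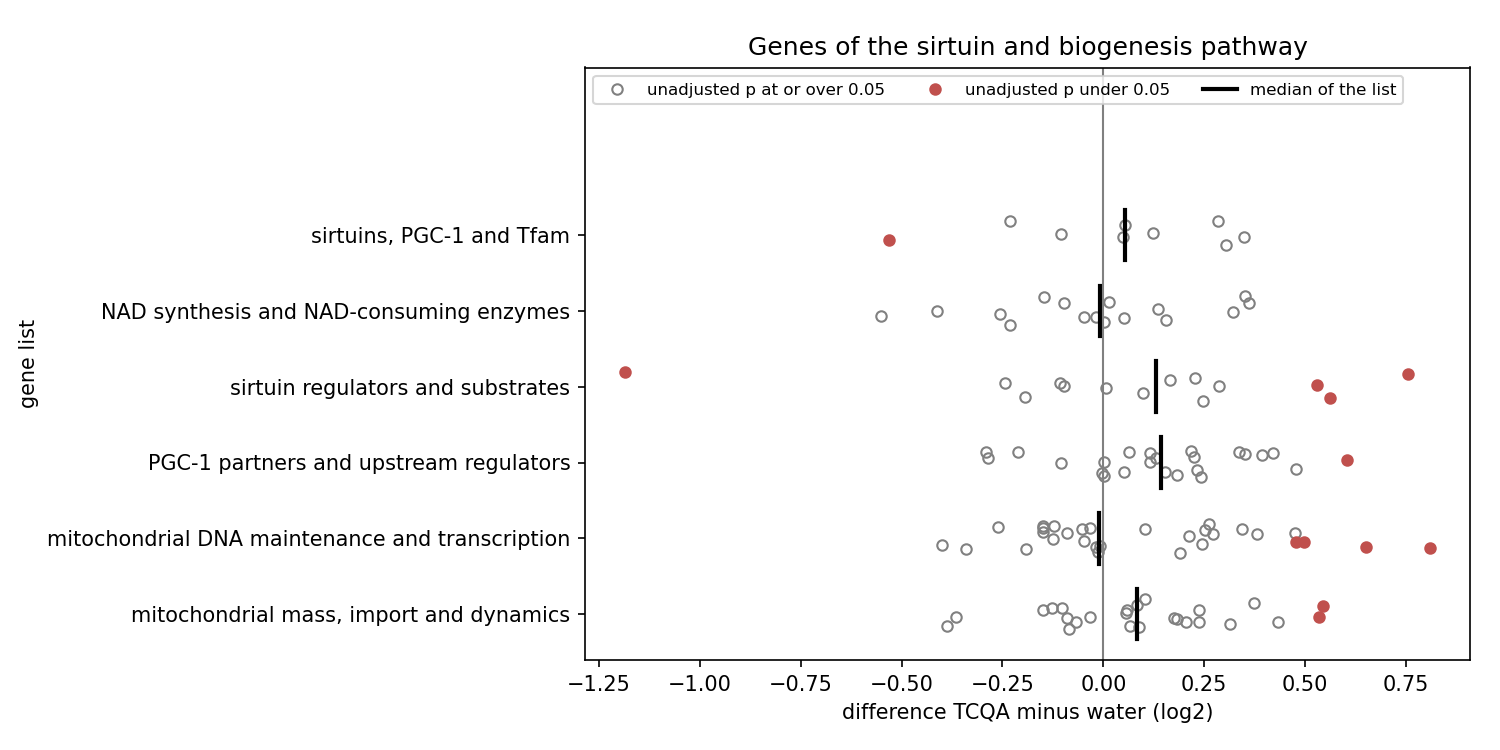
Log2 difference TCQA minus water (x axis) of each measured gene in the lists (y axis), filled where the unadjusted limma p was under 0.05, with a black bar at the list's median. Medians lie between -0.012 and 0.14, and the filled points are Sirt3 and 11 partner genes, of which Cps1 at -1.18 is the farthest from 0.

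NAD, the co-substrate of sirtuins, is made and used by the enzymes of the first list, where 8 of 16 measured genes were higher and 8 lower, with a median of -0.0083 that was 0.084 without water 1, between -0.033 and -0.016 without any other array, and 0.015 with the genes below the negative control median left out. An unadjusted p under 0.05 was reached by 0 of the 16 (limma). Qprt, which makes NAD from quinolinate, had log2 signals of 5.61 and 5.80 with TCQA against 6.11 and 6.13 with water. Sarm1, the axonal NAD hydrolase, stood at 5.72 and 5.79 against 5.37 and 5.45, and Nadk, which turns NAD into NADP, at 8.47 and 8.57 against 8.35 and 7.97, a difference of 0.36 that was 0.17 without water 2 and 0.55 without water 1. Groups did not overlap for 5 of the 16 genes, these 3 among them, beside 39.2% of all transcript clusters, and Qprt and Sarm1 were below the negative control median on all 4 arrays.

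Among regulators and substrates of sirtuins 9 of 14 measured genes were higher, with a median of 0.13, and 4 had an unadjusted p under 0.05. The median was 0.087 without TCQA 2, 0.21 without water 1 and 0.072 after quantile normalization. Cps1, the urea cycle enzyme that Sirt5 desuccinylates, had log2 signals of 4.08 and 3.91 with TCQA against 5.03 and 5.33 with water, a difference of -1.18 (SE 0.21; limma, adjusted p = 0.642). It met the study's criteria, but its fold is uncertain, as the negative control median exceeded it on all 4 arrays. Mlycd, the malonyl-CoA decarboxylase that Sirt4 inhibits, stood at 7.12 and 7.48 against 6.50 and 6.59, a difference of 0.75 (SE 0.21) that was 0.58 without TCQA 2, where its unadjusted p was no longer under 0.05. Both water values of Mlycd lay below the negative control median, which leaves the size of its difference uncertain. Foxo3, a stress-response transcription factor deacetylated by Sirt1, stood at 8.03 and 7.97 against 7.57 and 7.31, a difference of 0.56 (SE 0.20). Acss1, the mitochondrial acetyl-CoA synthetase activated by Sirt3, differed by 0.53 (SE 0.21) and is named for completing this count after its values were seen. Foxo3 lost its unadjusted p under 0.05 without TCQA 1 (0.53), TCQA 2 (0.59) or water 2 (0.43), and Acss1 without TCQA 1 (0.36), water 1 (0.54) or water 2 (0.52).

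Partners and upstream regulators of PGC-1 were higher for 19 of 24 measured genes, with a median of 0.14, which was -0.0059 without TCQA 2 and 0.24 without TCQA 1. Of all transcript clusters 50.5% were higher. Only Esrrb, an orphan nuclear receptor, had an unadjusted p under 0.05 here, at 3.72 and 3.11 after TCQA and 2.85 and 2.77 after water, far below the negative control median, and it lost it without TCQA 1 (0.30), water 1 (0.65) or water 2 (0.56). Rxra, the common partner of nuclear receptors, stood at 7.35 and 7.22 against 7.05 and 6.57, a difference of 0.48 (SE 0.23) that was 0.24 without water 2 and 0.72 without water 1, where its unadjusted p was under 0.05. Kat2a, the acetyltransferase GCN5 that opposes Sirt1 on PGC-1alpha, stood at 10.29 and 10.22 against 9.95 and 9.78, a difference of 0.39 (SE 0.19; limma, adjusted p = 0.688).

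Genes that maintain and transcribe mitochondrial DNA together with Tfam were higher for 14 and lower for 16 of 30, with a median of -0.012 that was 0.17 without TCQA 1, 0.040 without TCQA 2, 0.10 without water 1, 0.0042 without water 2, -0.050 after quantile normalization and 0.047 with the genes below the negative control median left out. The 4 with an unadjusted p under 0.05 were all higher after TCQA. Top3a, a topoisomerase that separates daughter mitochondrial genomes, had log2 signals of 7.55 and 7.45 with TCQA against 6.80 and 6.58 with water, a difference of 0.81 (SE 0.20; limma, adjusted p = 0.642). Its water values were both under the negative control median, and the size is uncertain for that reason. Exog, a mitochondrial exonuclease, stood at 9.13 and 9.07 against 8.38 and 8.53, a difference of 0.65 (SE 0.19). Twnk, the mitochondrial helicase, differed by 0.50 (SE 0.19), with all 4 arrays below the negative control median. Tfb2m, which opens the promoter beside Tfam, had 11.56 on both TCQA arrays against 11.11 and 11.06 with water, a difference of 0.48 (SE 0.18), and is named for completing this count after its values were seen. Top3a kept an unadjusted p under 0.05 with each array left out, Exog lost it without TCQA 1 (0.62) and without water 1 (0.58), and Twnk and Tfb2m lost it in all 4 such fits, at 0.44 to 0.56 and 0.45 to 0.50.

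Genes of mitochondrial mass, import and dynamics were higher for 16 of 25 measured genes, with a median of 0.084 that was 0.017 without TCQA 2, 0.046 without water 2 and 0.0087 after quantile normalization. Tomm40, the pore of the outer membrane import complex, had log2 signals of 10.22 and 10.37 with TCQA against 9.73 and 9.78 with water, a difference of 0.54 (SE 0.19; limma, adjusted p = 0.673). Mfn2, a fusion protein of the outer membrane, stood at 10.94 and 10.73 against 10.34 and 10.26, a difference of 0.53 (SE 0.19). Timm44, of the inner membrane import motor, differed by 0.43 (SE 0.20), with an unadjusted p of 0.0734 by limma. Tomm40 lost its unadjusted p under 0.05 with any array left out (0.47 to 0.62), and Mfn2 without TCQA 1 (0.43), water 1 (0.58) or water 2 (0.49).

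Markers of other cell types and regions differed between the arrays beside these values, in 10 lists in all. Array means of both TCQA arrays lay below both water arrays for myelinating oligodendrocytes and choroid plexus (6.96 and 6.76 against 8.05 and 7.46). They also did for astrocytes, by less than 0.01 between the nearest arrays (12.05 and 12.11 against 12.18 and 12.11). They lay above for excitatory neurons (12.16 and 12.12 against 11.45 and 12.05) and endothelium (8.96 and 9.01 against 8.66 and 8.80). Higher after TCQA were 5 of 12 astrocyte, 11 of 12 excitatory neuron and 8 of 10 endothelial genes. An unadjusted p under 0.05 (limma) was reached by 1 higher and 1 lower astrocyte gene and 2 higher excitatory neuron genes. In endothelium 3 higher genes and 1 lower gene reached it, against 3.48% higher and 3.89% lower of all transcript clusters. The study's criteria were met by 1 excitatory neuron gene. Of 11 choroid plexus markers 10 were lower after TCQA, 6 with an unadjusted p under 0.05 and 4 by the study's criteria, with a median of -0.82. Of these 6, named after their values were seen, only Kcnj13 lay above the negative control median on all 4 arrays. Folr1 lay above it on 3 arrays, Kl and Sostdc1 on 2, and F5 and Otx2 on 0, which leaves the size of their differences uncertain. Among all transcript clusters, 3.89% reached an unadjusted p under 0.05 in the lower direction, and 0.664% met the study's criteria in either direction. A higher TCQA mean was found for 50.5% of them. The same shares are the background for the thalamic and microglia counts that follow. Thalamic genes had a median of -0.68 with 6 of 8 below 0, and 3 of them reached an unadjusted p under 0.05, while their array means overlapped (8.37 and 9.18 against 9.79 and 9.02). Prkcd, a protein kinase C of thalamic relay neurons named after its values were seen, was the 1 thalamic marker past the study's criteria, at -1.99, with values from -2.92 to -1.06 when single arrays were left out. Microglia genes had a median of -0.12 with 10 of 11 below 0, and 1 of them reached such a p, again with overlapping array means (8.13 and 7.83 against 8.26 and 8.11). Striatal markers were lower after TCQA for 10 of 11 genes, with a median of -0.68, and were highest in water 1 (12.88, against 11.48 to 11.93). Olfactory bulb markers had higher TCQA means for 6 of 6, with a median of 0.98. Their array means were 5.67 and 8.42 for TCQA 1 and 2 and 6.25 and 5.78 for water 1 and 2. TCQA 1 was thus the lowest array, and the higher TCQA mean of this list rested on TCQA 2. In the striatal and the olfactory bulb list 0 genes reached an unadjusted p under 0.05 (limma). The part of these lists in the values of Sirt1, Sirt3 and Ppargc1b, the other genes with separated groups beside Sirt2 and Sirt4, was not tested.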

How the data were processed

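Brain cortex RNA of 4 samples was measured on Clariom S arrays from 100 ng of RNA each. The authors used SST-RMA (signal space transformation RMA, in Transcriptome Analysis Console 4.0.2) to make the deposited log2 signals, as the submitters' design text states, and RMA and limma stand in the submitters' processing notes. SST-RMA equalises array distributions and widens differences compared with plain RMA, so folds depend on it. The sources used here give no genome build.

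The 28846 rows included 19572 with 1 gene symbol, 0 with several and 9274 with none, and the 9 member rows matched RefSeq by gene ID. The brightest row stood for a symbol. All 19572 were fitted with limma 3.58.1 in R 4.3.3 (lmFit and eBayes, 2-sided, no block), which was tested on simulated data, with Benjamini-Hochberg adjustment over all 19572. The rule for names took all members, the 3 genes of smallest p per partner list and a few markers of oligodendrocytes and parvalbumin interneurons. Members and lists were chosen with earlier results of these data known. Alternatives covered the variance prior, normalisation, a dim-signal filter, the rows fitted, leaving out each array, and the replicate number as a block.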

Additional observations from a re-analysis of the deposited data

How the results depend on the processing

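Of 62 values of the 9 genes under the 7 alternatives that keep all arrays, all kept their side of an unadjusted p of 0.05 in limma. For Sirt3 this p lay between 0.00928 and 0.0413. All 62 also kept their direction, but only quantile normalization and median centring could turn it. The other alternatives that keep all arrays leave each difference unchanged by construction. Sirt6 has no value under the filter at the negative control median, and no gene had more than 1 row to average. With 1 array left out, the lone array of a group is assumed to vary like the other group, and 6 of 36 values turned sign: Sirt5 to -0.19 (without TCQA 2) and -0.23 (without water 2), Sirt6 to -0.048 (without TCQA 1) and -0.11 (without water 1), Ppargc1a to 0.092 (without TCQA 1) and Tfam to -0.044 (without TCQA 2). Over the 4 such fits Sirt5 ranged from -0.23 to 0.34, Sirt6 from -0.11 to 0.21, Ppargc1a from -0.30 to 0.092 and Tfam from -0.044 to 0.29. Each such fit is less precise than the fit of all arrays. An unadjusted p under 0.05 can thus be lost at a nearly unchanged difference, as for Tfb2m (0.45 to 0.50, against 0.48). A lost p alone does not show dependence on the array left out. The count of members with an unadjusted p under 0.05 was 0 in each such fit, against 1. Over all transcript clusters the study's criteria called 130, and between 218 and 428 with an array left out, while adjusted calls ranged from 0 to 2 and unadjusted ones from 1011 to 1735, against 1443. The partner genes with an unadjusted p under 0.05 ranged from 3 to 7 higher and from 1 to 2 lower, against 10 and 1. The filter at the negative control median gave 902 unadjusted calls, 44 by the study's criteria and 0 lower partner genes. These counts come from fewer genes and a refitted variance prior, so they do not compare directly with 1443 and 130. The cause of these and the other changes was not tested.

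Same-numbered arrays did not deviate together across groups (r = -0.0032 across genes), so the numbers are not taken as pairs. With the replicate block, 1497 transcript clusters had an unadjusted p under 0.05, 0 passed adjustment, and 1 of the 9 members had an unadjusted p under 0.05.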
